A study of Mus musculus with 4 samples.

Results

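The interferon and antigen presentation genes described here are 35 listed mouse genes, read from Affymetrix array signals of embryonic stem (ES) cells. A gene was read by the probe set that the annotation pairs with its symbol alone, and by the brightest one on average where there were several. Of the 35 genes, 34 had such a probe set, out of 18193 genes so named on the array. Isg15, a ubiquitin-like protein, had only a probe set shared with another gene and was left out. A filter on weak mean signal kept 29 of the 34, among 12483 genes tested in all. Ifit1, Isg20, Usp18, Mx1 and Mx2 did not pass it.

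Type I interferons signal through a receptor and its kinases to a complex of STAT2 and IRF9 with a further STAT protein, which binds the interferon-stimulated response element (ISRE) of antiviral genes. Interferon gamma acts through STAT dimers at a gamma-activated site (GAS), and raises guanylate-binding GTPases, the immunoproteasome, the peptide transporter and MHC class I. Pluripotent cells are known for a weak interferon response and low MHC class I, while fibroblasts respond to interferon readily.

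All cells were of the E14.1 ES line with a blasticidin-resistance gene targeted to Oct3/4, and grew with LIF and blasticidin. The heterozygous line (HET18) was flox/- for the zinc finger factor gene Sall4, and the line labelled null (KO1) was delta/-. Each line was cultured on gelatin without feeders and on blasticidin-resistant fibroblasts, which gave 4 groups of 1 array each. Each genotype was 1 clonal line, so line and genotype cannot be told apart.

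The 2% trimmed mean signal was 100 on each array, and median signals ran from 16.1 to 18. Sall4 itself read 1126.5 and 1670.5 without feeders against 780.8 and 1452.4 on feeders, in heterozygous and labelled-null cells respectively. Its signal was thus higher on the arrays labelled null, and where the probes lie relative to the deletion was not known, so the genotype direction rests on the labels. All 12 ES cell markers were present, with signals of 103.3 and above on every array. Fibroblast markers told the feeder cultures apart: the summed signal of 29 markers was 4910 in heterozygous and 9730 in labelled-null cells without feeders against 28400 and 35200 on feeders. On the heterozygous array without feeders 9 of these 29 lay under the signal equivalent of the filter (9.46), on the labelled-null array without feeders 2, and on either feeder array 0. No marker was at 0 on any array. Postn, a matrix protein gene, read 1.4 and 12.8 without feeders against 1135.9 and 1671.3 on feeders. Arrays of cultures on feeders measure RNA of fibroblasts as well as of ES cells. In such bulk RNA, more cells of a type and more RNA per cell cannot be told apart.

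**Figure D1:**
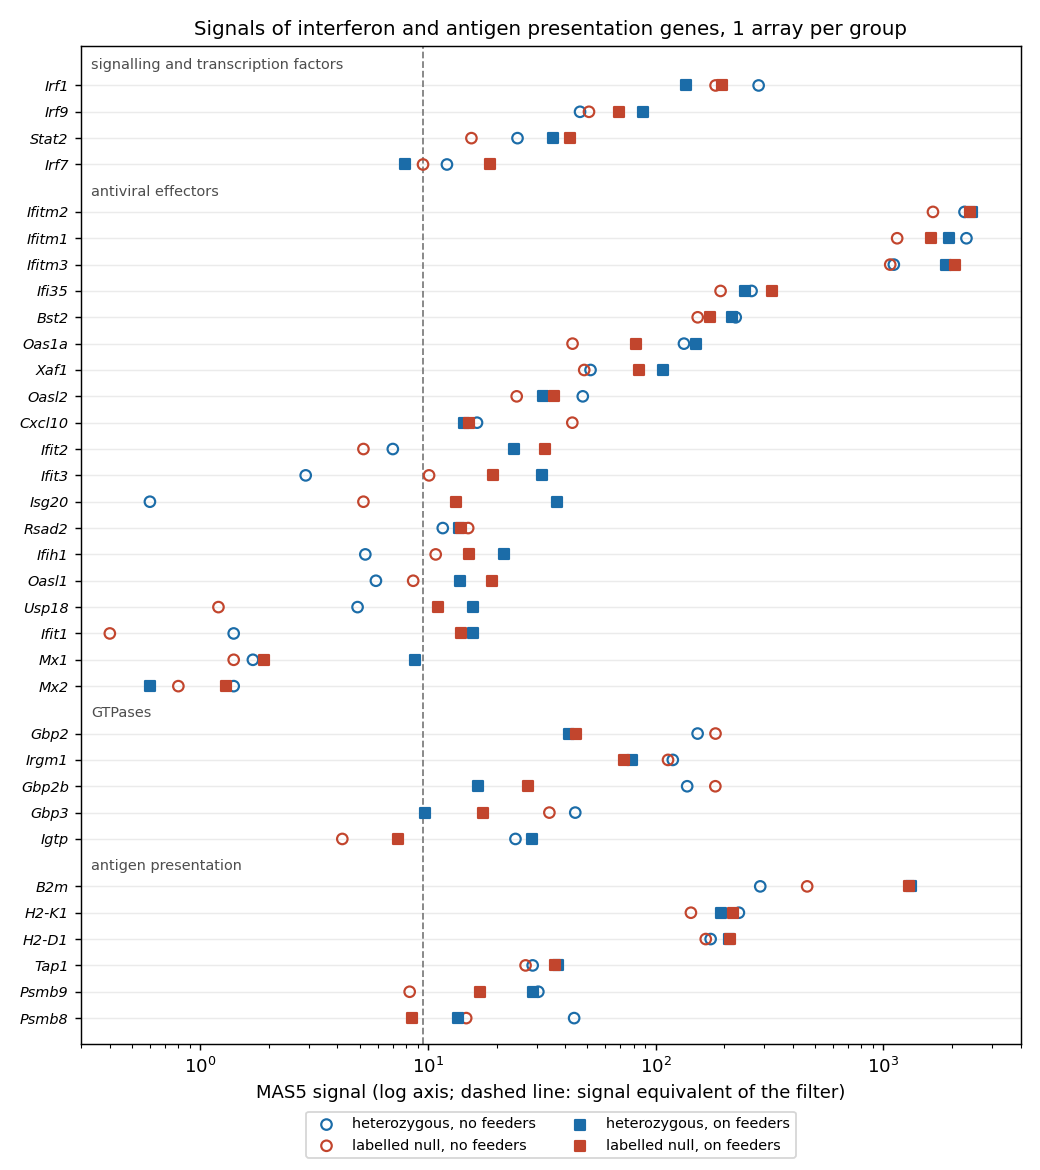
MAS5 signal (log axis) of the 34 genes on each of 4 arrays, grouped by role; circles are cultures without feeders, squares cultures on feeders, blue heterozygous and red labelled null, and the dashed line is the signal equivalent of the filter. Both squares of Gbp2, Gbp2b and Gbp3 lie left of both circles, whereas both squares of B2m, Ifitm3, Ifit1, Ifit2 and Ifit3 lie right of them.

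The plot of signals by role shows that the clearest pattern followed the feeders and went both ways. On feeders 2 of the 29 tested genes rose, B2m and Ifitm3, and 2 fell, Gbp2 and Gbp2b, by limma over all genes at an adjusted p under 0.05, which is what called means here. Among all genes tested 4.01% rose and 0.921% fell by the same test, so the rising share of these genes was near the background. Both rising calls rest on the variance trend of the fit: without it B2m (adjusted p = 0.0815) and Ifitm3 (adjusted p = 0.133) did not pass, while Gbp2 and Gbp2b did. The other 25 did not pass. At an unadjusted p under 0.05 were 13 of the 29 (44.8%), against 21.9% of all genes tested. Ifit2 and Oasl1 lay under the filter signal on both arrays without feeders, and Ifit3 and Ifih1 on the heterozygous one. These genes passed the filter through the feeder arrays, so nothing is read from this share or from the median that follows. The median fitted feeder difference of the 29 was 0.32 on the log2(signal + 4.6) scale, against 0.03 over all genes tested. Every fold and log2 difference below is on this scale, where the added constant makes folds of low signals smaller.

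Promoter stretches are shown for 6 genes whose feeder arrays both lay above or both lay below the other arrays, chosen because they held the ISRE core. The core was searched as GAAANNGAAA on both strands in the RefSeq windows of GRCm38.p6, which run from 250 bases before to 50 bases after each start. Of 39 windows of 32 matched genes, 17 held it (43.6%), against 3.44% of all 32851 windows. The GAS core, searched as TTCNNNGAA, was in 9 (23.1%) against 8.3%, and overlapped an ISRE core in 2 windows. A match is a description of the letters, not of binding. In the stretches below, of 100 bases upstream of the start and all on the plus strand, capitals mark the ISRE core or its reverse complement.
Gbp2b, chr3:142594665-142594764: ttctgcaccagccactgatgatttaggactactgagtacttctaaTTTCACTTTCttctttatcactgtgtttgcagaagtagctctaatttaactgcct
Gbp2, chr3:142620559-142620658: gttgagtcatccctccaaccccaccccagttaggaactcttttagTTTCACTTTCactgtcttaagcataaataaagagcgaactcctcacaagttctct
Gbp3, chr3:142559944-142560043: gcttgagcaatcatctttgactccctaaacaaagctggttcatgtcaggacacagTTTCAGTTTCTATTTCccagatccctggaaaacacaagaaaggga
B2m, chr2:122147503-122147602: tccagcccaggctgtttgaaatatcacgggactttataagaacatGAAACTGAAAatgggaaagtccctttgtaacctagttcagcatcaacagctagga
Ifit1, chr19:34640749-34640848: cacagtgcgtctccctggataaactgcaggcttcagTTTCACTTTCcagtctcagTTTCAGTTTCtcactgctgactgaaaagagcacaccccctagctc
Ifit3, chr19:34583345-34583444: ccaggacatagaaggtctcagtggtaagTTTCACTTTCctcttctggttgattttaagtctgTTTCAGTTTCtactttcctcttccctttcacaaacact
Of these 6 genes Gbp2b, Gbp2 and B2m were called with feeders, and Gbp3, Ifit3 and Ifit1 were not. The core is thus shown beside genes lower on feeders (the Gbp genes) and beside genes higher on them. Stat2 and Ifitm2, higher on both feeder arrays, and Irgm1 and Cxcl10, lower on both, also held it before the start and are not shown. Ifitm3 and Ifih1 held it only after the start. No window of Ifit2, Isg20, Xaf1, Oasl1, Irf9, Tap1 or H2-D1, which were also higher on both feeder arrays, held it. Nor did a window of Psmb8, which was lower on both.

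No gene of the ligands, receptors or sensors was called. Of the 9 interferon ligand genes with a probe set, 0 passed the filter, and their signals lay between 0.4 and 10.5. Of 12 tested genes of the receptors and their signalling, 0 rose and 0 fell by limma with feeders (6 at an unadjusted p under 0.05, 50.0%, against 21.9% of all genes) or by genotype (0 at an unadjusted p under 0.05). Ifnar2, a chain of the type I receptor, read 40.3 and 63.4 without feeders against 105.2 and 94.6 on feeders, with a fitted feeder difference of 0.92 (SE 0.25, adjusted p = 0.11). Ifnar1, the other chain, read 110.1 and 156.8 without feeders against 73.5 and 93.2 on feeders, a difference of -0.64 that did not pass. The kinase gene Jak1 read 185.8 and 273.0 without feeders against 430.1 and 373.8 on feeders, and Jak2 53.3 and 101.8 against 131.5 and 121.3. Nmi, whose protein binds STATs, read 50.5 and 45.6 against 20.8 and 22.7, lower on both feeder arrays, and did not pass (adjusted p = 0.0898). Of 12 sensors of foreign nucleic acid or their partners, 0 passed for either factor by limma. At an unadjusted p under 0.05 were 2 for feeders (16.7%) and 0 for genotype, against 21.9% and 12.4% of all genes. Sting1, an adaptor for cytosolic DNA sensing, read 13.1 in heterozygous and 80.4 in labelled-null cells without feeders against 46.6 and 46.3 on feeders. Tlr4, a receptor for bacterial lipopolysaccharide, read 2.2 and 19.0 against 23.1 and 28.4, and the kinase gene Ikbke 4.4 and 6.5 against 22.5 and 12.8.

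Among the transcription factors Stat2, a subunit of the ISRE-binding complex, read 24.7 in heterozygous and 15.5 in labelled-null cells without feeders against 35.4 and 41.8 on feeders. Irf9, its DNA-binding partner, read 46.5 and 50.9 without feeders against 87.8 and 69.0 on feeders. In both genes the feeder arrays were the higher ones and the groups did not overlap, but the fitted differences of 0.83 (SE 0.30, adjusted p = 0.19) and 0.63 (SE 0.22, adjusted p = 0.184) did not pass. The share of all genes tested whose feeder groups do not overlap was not counted. Nothing is therefore read from such separations, here or below. A weaker Stat2 probe set had a difference of -0.08. Irf1, a factor induced by interferon gamma, read 283.0 and 183.1 without feeders against 135.6 and 194.5 on feeders, so that the heterozygous array without feeders stood highest and the heterozygous array on feeders lowest. Irf7, which amplifies type I interferon, stayed between 7.9 and 18.7 with overlapping groups.

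The IFIT genes, whose products bind viral RNA, had weak signals without feeders. Ifit2 read 7.0 and 5.2 without feeders against 23.9 and 32.5 on feeders, with a fitted difference of 1.61 (SE 0.35, adjusted p = 0.0642). Ifit3 read 2.9 and 10.1 without feeders against 31.7 and 19.2 on feeders, with a difference of 1.49 (SE 0.47, adjusted p = 0.147). Ifit1, under the filter, read 1.4 and 0.4 without feeders against 15.8 and 14.0 on feeders. None of the 3 passed a test, and in each both feeder arrays lay above both arrays without feeders. The RNA exonuclease gene Isg20, just under the filter, read 0.6 and 5.2 against 37.0 and 13.2. Usp18, a protease that removes ISG15 and damps the receptor, read 4.9 and 1.2 against 15.8 and 11.1. Both of these were higher on each feeder array than on each array without feeders. The GTPase genes Mx1 and Mx2 stayed at 8.8 or below on every array.

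Ifitm3, a membrane protein that blocks viral entry, read 1110.9 in heterozygous and 1071.1 in labelled-null cells without feeders against 1877.0 and 2063.6 on feeders. It rose by 0.85 on feeders (SE 0.10, adjusted p = 0.0113), 1.69-fold in heterozygous and 1.92-fold in labelled-null cells. Its neighbours on chromosome 7 were not called. Ifitm1 read 2315.3 and 1148.9 without feeders against 1943.9 and 1616.6 on feeders, and Ifitm2 read 2270.2 and 1650.4 against 2450.9 and 2388.1. In both of these the labelled-null array without feeders was the lowest, and neither feeder difference passed (0.12 and 0.32). Ifih1, a sensor of double-stranded RNA, read 5.3 and 10.8 without feeders against 21.5 and 15.2 on feeders. Xaf1, an inducer of apoptosis, read 51.7 and 48.5 against 107.1 and 84.5, with a fitted difference of 0.87 (SE 0.20, adjusted p = 0.0788). A weaker Xaf1 probe set, with its mean under the filter, had -0.51, and the mean of probe sets gave 0.18. Oasl1, of the oligoadenylate synthetase family, read 5.9 and 8.6 against 13.8 and 19.1. In Ifih1, Xaf1 and Oasl1 both feeder arrays were above both others, without a call. Oasl2, of the same family, read 47.8 and 24.5 against 32.0 and 35.8, with overlapping groups. Bst2, which tethers virions to the cell, ranged from 152.8 to 224.5, Rsad2, which encodes viperin, from 11.6 to 15.0, and Ifi35 from 192.6 to 325.1, all with overlapping feeder groups. Under median centring the small feeder differences of Bst2 and Rsad2 (0.06 and 0.05) were just below 0.

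The guanylate-binding protein genes, which encode large interferon-induced GTPases that attack pathogen vacuoles, went the other way. Gbp2b read 137.4 in heterozygous and 182.7 in labelled-null cells without feeders against 16.5 and 27.6 on feeders. It fell by 2.65 (SE 0.21, adjusted p = 0.00374), 6.73-fold and 5.82-fold in the respective lines. Gbp2 read 152.7 and 183.0 without feeders against 41.6 and 44.7 on feeders, and fell by 1.85 (SE 0.19, adjusted p = 0.00781). A second Gbp2 probe set, which can bind related transcripts, read 132.9 and 158.9 against 20.0 and 40.3. Gbp3 read 44.3 and 34.1 against 9.7 and 17.5, lower on both feeder arrays, with a difference of -1.29 (SE 0.34, adjusted p = 0.101) that did not pass. In RefSeq these 3 genes lie side by side on chromosome 3, next to Gbp7. Gbp7 read 61.2 and 38.0 without feeders against 30.5 and 35.2 on feeders, a difference of -0.50 that did not pass. The sequences are related, so reads of one gene's transcript by another's probes were not tested. The ES cell markers, measured on the same arrays, had a median feeder difference of 0.09. Of these 12, 1 was lower by limma (Lin28a, -1.02), against 0.921% of all genes tested.

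The immunity-related GTPases were not called. Irgm1 read 118.8 and 113.2 without feeders against 78.9 and 72.5 on feeders, with a difference of -0.59 (SE 0.19, adjusted p = 0.151). Igtp read 24.2 in heterozygous and 4.2 in labelled-null cells without feeders against 28.5 and 7.4 on feeders, and so was lower on the labelled-null array in either culture. Both proteins act in the defence against intracellular parasites.

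In antigen presentation only the light chain moved with feeders by the test. B2m, the beta-2-microglobulin shared by all MHC class I molecules, read 287.7 and 462.4 without feeders against 1315.7 and 1292.7 on feeders. It rose by 1.82 (SE 0.19, adjusted p = 0.00766), 4.52-fold in heterozygous and 2.78-fold in labelled-null cells, and a second probe set gave the same difference of 1.82. The class I heavy chain gene H2-K1 read 231.8 and 142.7 against 193.5 and 217.7, and H2-D1 read 174.2 and 165.8 against 210.0 and 211.0. Their differences of 0.17 and 0.30 did not pass. The heavy chain probe sets used carry the mark of probes that can bind several transcripts. A further H2-D1 probe set read 117.1 and 129.8 against 214.8 and 220.6, a difference of 0.80. Of the other H2-D1 probe sets above the filter, 1 with this mark had 0.32 and 1 without it had -0.23. Tap1, a subunit of the peptide transporter, read 28.8 and 26.8 against 37.3 and 36.0. Psmb8 and Psmb9, catalytic subunits of the immunoproteasome that flank Tap1 on chromosome 17, had no called feeder difference (-0.99 and 0.33). Psmb8 read 43.8 and 14.7 without feeders against 13.6 and 8.5 on feeders, with the heterozygous array without feeders well above the others.

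**Figure D2:**
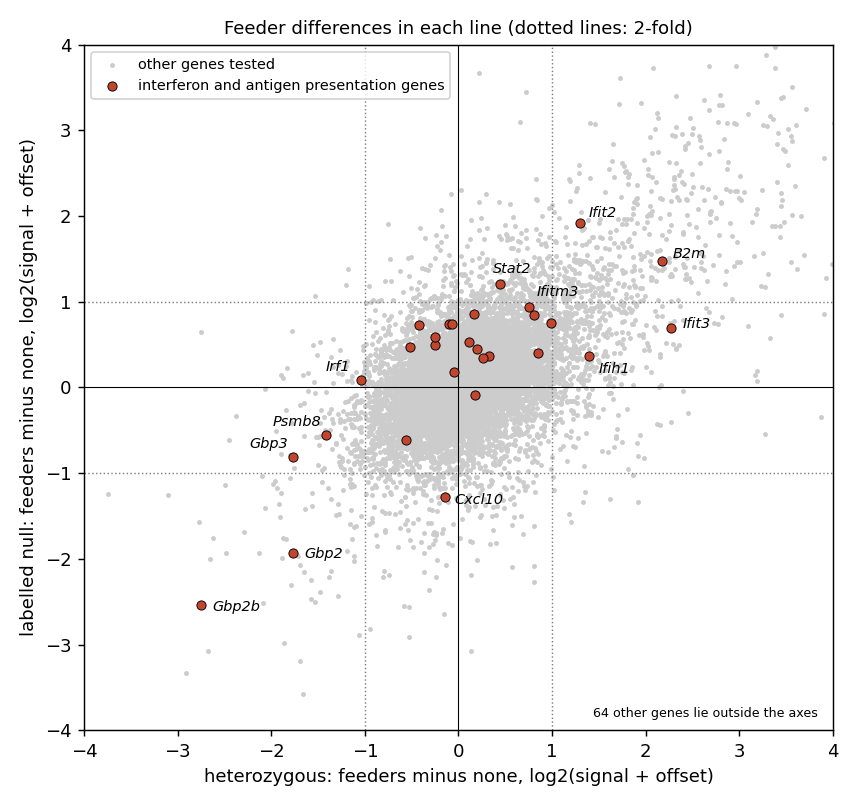
Feeder difference in heterozygous cells (horizontal) against that in labelled-null cells (vertical), both in log2(signal + 4.6) from 1 array against 1, for 29 tested interferon and antigen presentation genes (red) and all other genes tested (grey). Gbp2b (-2.75, -2.54) and Gbp2 (-1.77, -1.93) lie low on both axes and B2m (2.18, 1.47) and Ifit2 (1.30, 1.92) high on both.

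The plot of feeder differences in each line gives each gene's value in both lines. In heterozygous cells 4 of the 29 were at least 2-fold higher on feeders (13.8%; 8.12% of all genes tested), namely B2m, Ifit2, Ifit3 and Ifih1. Of these, Ifit2, Ifit3 and Ifih1 were under the filter signal on the heterozygous array without feeders and passed the filter on their mean through the feeder arrays, so nothing is read from the count of 4. At least 2-fold lower were 5 (17.2%; 1.8% of all genes), the 3 Gbp genes with Psmb8 and Irf1. In labelled-null cells 3 were higher (10.3%; 6.76% of all genes), B2m, Ifit2 and Stat2, and 3 lower (10.3%; 2.51% of all genes), Gbp2, Gbp2b and Cxcl10. Ifit2 was under the filter signal on the labelled-null array without feeders as well, so nothing is read from the count of 3 higher genes. These are values of 1 array against 1, without a test, and the 2 lines were not tested against each other. Cxcl10, an interferon-induced chemokine gene, read 16.4 in heterozygous and 43.0 in labelled-null cells without feeders against 14.4 and 15.1 on feeders, so that a single array stood apart.

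Fibroblast markers differed between the same arrays: 26 of 29 tested markers rose and 0 fell by limma, at a median of 4.30. Among all genes tested 4.01% rose and 0.921% fell. Without feeders 9 of the 29 were under the filter signal on the heterozygous array and 2 on the labelled-null array. These passed the filter through other arrays, so nothing is read from the count of 26 or its median. Macrophage and blood markers were also higher in sum on feeders, with summed signals of 334 and 294 without feeders against 596 and 593 on feeders. Of the 18 listed, 5 were under the filter signal on all arrays and 8 were tested. Of the 8 tested, 6 had a fitted feeder difference above 0 and 2, Mrc1 and Coro1a, below 0. Among those not tested, both feeder arrays lay above both others in Ptprc, Cd14, C1qa, C1qb, C1qc and Cd52, at 26.8 or below. In Tyrobp, Cd163, Aif1 and Itgam, also not tested, they did not. Itgam read 3.7 and 1.7 without feeders against 2.1 and 0.4 on feeders. Lyz2, a lysozyme gene that passed the filter through the feeder arrays, was the 1 that rose by limma. Lyz2 read 1.6 and 8.6 without feeders against 141.6 and 168.3 on feeders. This gene alone made much of the rise in the summed signals. What part fibroblast RNA, or any macrophage RNA, has in the feeder differences of B2m, Ifitm3 and the IFIT genes was not tested.

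**Figure D3:**
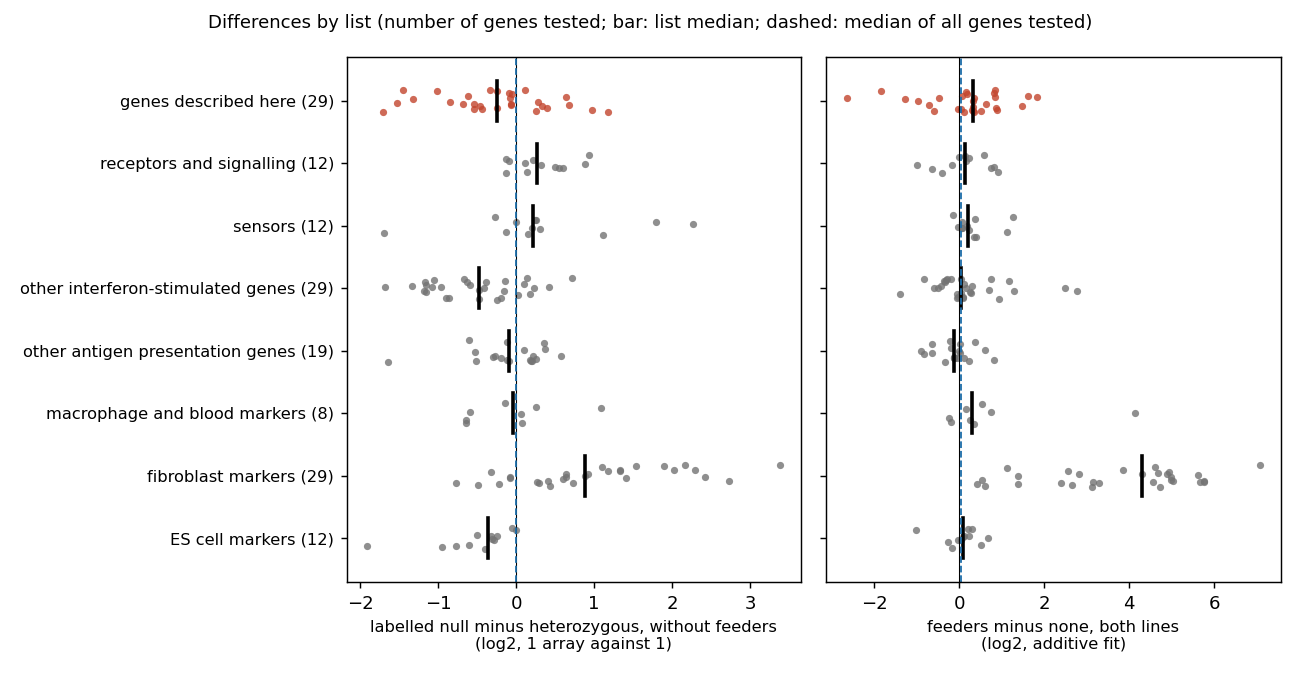
Log2 difference of each tested gene by list, between lines without feeders (left, 1 array against 1) and between cultures with and without feeders (right, additive fit); bars are list medians and the dashed line the median of all genes tested. Fibroblast markers lie furthest to the right by feeders (median 4.30), while the interferon and antigen presentation genes spread to both sides of 0 (median 0.32).

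Genes of the same pathways outside the 35 were mostly not called with feeders, as the plot of differences by list shows. Of 29 other interferon-stimulated genes tested, 2 rose and 0 fell by limma, with a median of 0.05. Among all genes tested 4.01% rose and 0.921% fell, so nothing is read from the count of 2. Ifi27 read 18.6 and 16.4 without feeders against 127.2 and 166.9 on feeders, and rose by 2.77 (SE 0.24, adjusted p = 0.00449). Lgals3bp, which encodes a secreted glycoprotein, rose by 2.49 (SE 0.25, adjusted p = 0.00753). Cxcl11, a chemokine gene, read 19.7 and 35.2 against 3.6 and 12.4, a difference of -1.40 that did not pass (adjusted p = 0.0773). Of 19 other antigen presentation genes 0 rose and 0 fell by limma, with a median of -0.13. At an unadjusted p under 0.05 were 6 of these 19 (31.6%, against 21.9% of all genes). Psmb10, the remaining inducible proteasome subunit, read 169.0 and 115.4 against 50.7 and 101.5. Cd1d1, which presents lipids, had a difference of 0.82 (adjusted p = 0.0951), Cd74 of -0.83 and Tapbp, the tapasin gene, of -0.65, none of them called.

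Between the lines no interferon or antigen presentation gene was called. By limma 0 of 29 were higher and 0 lower in labelled-null cells, where 0.016% and 0.032% of all genes tested were called, and 6 of the 29 (20.7%) had an unadjusted p under 0.05, against 12.4% of all genes. The median fitted difference, labelled null minus heterozygous, was -0.05, against 0.01 over all genes. The largest values belonged to genes with lower signals in labelled-null cells in either culture. Igtp had a fitted difference of -1.59 (SE 0.33, adjusted p = 0.188), 3.27-fold lower without feeders and 2.76-fold lower on feeders, with both labelled-null signals under the filter signal. Oas1a, an oligoadenylate synthetase that activates RNA decay, read 133.0 in heterozygous and 43.1 in labelled-null cells without feeders against 149.7 and 81.8 on feeders. Its difference was -1.18 (SE 0.24, adjusted p = 0.181). Psmb9 read 30.5 and 8.3 without feeders against 28.9 and 16.9 on feeders (-1.04, SE 0.33, adjusted p = 0.318), and Psmb8 had -0.90 (SE 0.35, adjusted p = 0.387). For Igtp, Oas1a and Psmb9 the genotype groups did not overlap, and for Psmb8 they did. The share of all genes tested whose genotype groups do not overlap was not counted, and Igtp passed the filter through the heterozygous arrays. Nothing is therefore read from these separations.

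**Figure D4:**
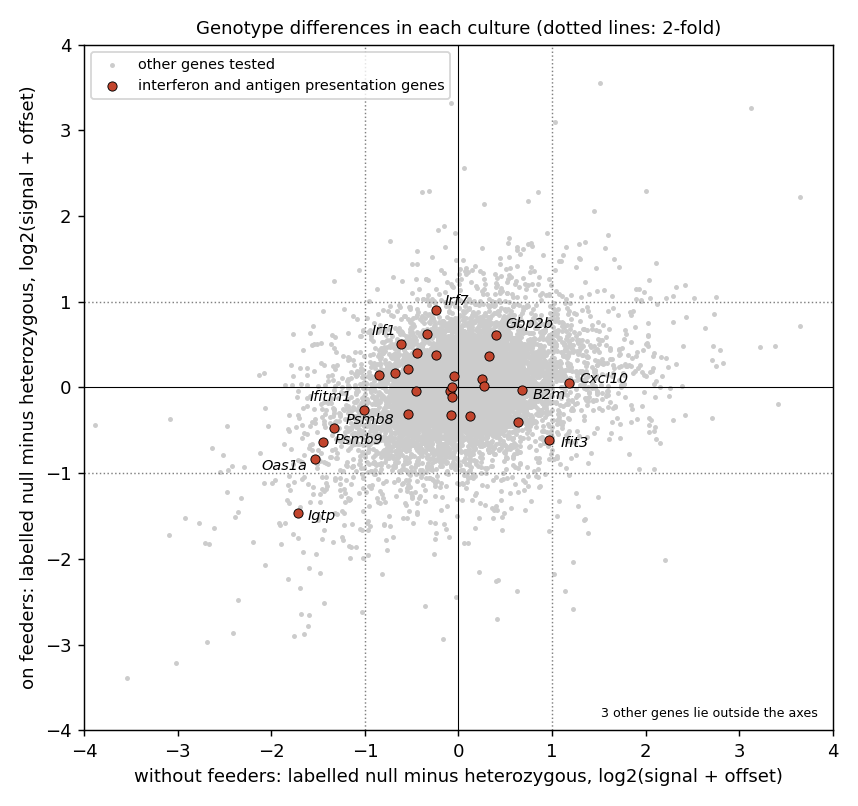
Difference between labelled-null and heterozygous cells without feeders (horizontal) and on feeders (vertical), in log2(signal + 4.6) from 1 array against 1, for the 29 tested genes (red) and all other genes tested (grey). Igtp, Oas1a, Psmb9, Psmb8 and Ifitm1 lie at -1.01 or below without feeders, and of these Igtp alone is below -1 on feeders (-1.46).

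The plot of genotype differences in each culture shows lower values mostly in the pair without feeders. There 5 of the 29 were at least 2-fold lower in labelled-null cells (17.2%; 3.32% of all genes tested), namely Igtp, Oas1a, Psmb9, Psmb8 and Ifitm1, and 1 was higher, Cxcl10 (3.45%; 4.31% of all genes). Igtp and Psmb9 were under the filter signal on the labelled-null array of this pair, and Igtp passed the filter through the heterozygous arrays. Nothing is therefore read from the count of 5. On feeders 1 was lower, Igtp (3.45%; 2.26% of all genes), and 0 were higher (1.59% of all genes). The median of the 29 was -0.24 without feeders and 0.01 on feeders, against 0.00 and 0.01 over all genes tested. The other interferon-stimulated genes had medians of -0.47 and 0.04 in the same order. Without feeders 8 of 29 (27.6%; 3.32% of all genes) were at least 2-fold lower in labelled-null cells. These 8 were Rtp4, Tor3a, Sp110, Parp9, Parp12, Parp14, Herc6 and Trim30a, while 0 of the 29 were higher (4.31% of all genes). Rtp4, Sp110, Herc6 and Trim30a were under the filter signal on the labelled-null array without feeders. They passed the filter through other arrays, so nothing is read from the count of 8. On feeders 2 of the 29 were lower (6.9%; 2.26% of all genes), Ifi203 and Sp110, and 2 higher (6.9%; 1.59% of all genes), Cxcl11 and Samd9l. Ifi203, Sp110 and Cxcl11 were each under the filter signal on the lower array of this pair, so nothing is read from these counts. Sp110, a nuclear body protein, read 24.4 and 8.4 without feeders against 42.7 and 7.3 on feeders, with a fitted difference of -1.57 (SE 0.35, adjusted p = 0.209). By limma 0 of these 29 passed for genotype, with 7 at an unadjusted p under 0.05 (24.1%, against 12.4% of all genes). The other antigen presentation genes had a median of -0.09 without feeders, 0.04 with them, and 0 of 19 called by limma (1 at an unadjusted p under 0.05, 5.26%). Their largest difference was that of H2-Eb1, a class II gene, which read 21.4 and 3.7 without feeders against 12.3 and 7.1 on feeders. Fibroblast markers had a median of 0.88 between the arrays without feeders, opposite in sign. At least 2-fold higher in labelled-null cells were 13 of 29 (44.8%; 4.31% of all genes). On the heterozygous array 9 of the 29 were under the filter signal and passed the filter through other arrays. Nothing is therefore read from this median or count. ES cell markers had a median of -0.35 without feeders and -0.09 on feeders. A fitted difference below 0 was found in 11 of 12, against 6081 of all 12483 genes tested. None of the 12 was called, and 6 had an unadjusted p under 0.05 (50.0%, against 12.4% of all genes). The part of either marker list in the genotype values was not tested. Whether the genotype difference itself depends on feeders was not tested, since with 1 array per group that difference is the residual of the model.

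Genes with several probe sets differed in how well these matched. Above the filter, 6 tested genes had 11 further probe sets, of which 7 shared the feeder direction and 3 the genotype direction of the one used. Those of B2m and Gbp2 gave the same feeder direction, as above. H2-K1 had probe sets that read 231.8 and 142.7, and 105.8 and 153.0, in heterozygous and labelled-null cells without feeders, so the direction between lines depended on the probe set.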

How the data were processed

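The authors deposited linear MAS5 signals (array intensity) of 45101 probe sets on 4 arrays; MAS5 is named in the submitters' processing notes, without a version. Signals were used as deposited. Control probe sets (64) were not used; 34945 probe sets had 1 symbol, 932 several and 9160 were not listed in the annotation. Values were log2(signal + 4.6), 4.6 being the 25th percentile of all signals, and genes whose mean lay under the 40th percentile of probe sets (3.81) were left out. limma 3.58.1 in R 4.3.3 (lmFit, eBayes with a variance trend) was fitted to 12483 genes with genotype and feeder terms, two-sided, with Benjamini-Hochberg adjustment over all genes and a threshold of 0.05. It left 1 residual degree of freedom, plus 4.76 prior degrees of freedom, and was tested on simulated data. That residual is the genotype by feeder interaction, so p-values do not measure spread between replicate cultures, and the number of arrays limits the precision. Single pairs have no test, and there 2-fold was the threshold. The genes, lists and tests were chosen with earlier results of these data known. Genes of other lists were named by the size of their fitted differences (4 by feeders, 2 by genotype), except Gbp7, a neighbour of the Gbp genes, the genes at least 2-fold different, and some markers, chosen after their values were seen. Alternatives varied the offset, filter, scaling, probe set rule, model and fold threshold.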

Additional observations from a re-analysis of the deposited data

Results flagged for a closer look

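In 2 of the 29 tested genes the difference between lines had opposite signs in the 2 culture conditions, at 0.5 or more on the log2 scale in each. The difference was not tested, as each value is 1 array against 1. Irf1 had -0.62 without feeders and 0.51 on feeders, 1.12 apart. Ifit3 had 0.97 and -0.61, so that the second minus the first was -1.58.
Isg20, under the filter and so not among the 29, had 0.91 and -1.22, which are -2.14 apart in the same order.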

How the results depend on the processing

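No member was called by genotype under any of the 10 alternatives to the limma fit, and Gbp2 and Gbp2b were called by feeders under all of them. Without a variance trend 2 members were called by feeders in place of 4: B2m (adjusted p = 0.0815, range over its settings 0.00658 to 0.0815) and Ifitm3 (0.133, range 0.00778 to 0.133) no longer passed. The median feeder difference of 0.32 became 0.22 with the offset at the median signal and 0.17 with the mean of probe sets, which turned the median genotype difference to 0.02. The mean of probe sets also turned the genotype differences of Ifi35 (0.20), H2-K1 (0.0055), H2-D1 (0.0035) and Xaf1 (0.06). Median centring turned the genotype difference of Ifitm3 (-0.02) and the feeder differences of Bst2 (-0.0035) and Rsad2 (-0.02). None of these was called.

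Counts of members at least 2-fold different moved more. For genotype without feeders 6 became 2 with the offset at the median and with the filter at the 60th percentile, 12 at 1.5-fold and 1 at 3-fold. On feeders 1 became 0 with either of those settings and at 3-fold, 2 with an offset of 1, 3 with no filter and 7 at 1.5-fold. For feeders 9 in heterozygous cells became 4 with the stricter filter and 5 at 3-fold, and 6 in labelled-null cells became 3 with either and 17 at 1.5-fold. The stricter filter tested 17 members and the absent filter 34. Over all genes, calls by genotype went from 6 to 0 (no filter, stricter filter, no variance trend, 1 factor), 3 (offset at the median) 4 (offset of 1, highest mean log2 value) or 7 (quantile normalization, median centring), and calls by feeders ranged from 190 (no variance trend) to 632 (median centring).

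The cause of these changes was not tested, except that a stricter filter tests fewer genes. Leaving out 1 array was not run, as it leaves the model no residual degrees of freedom. No separate replicate block was fitted, since each group holds 1 array and the additive model already compares feeders within each line and lines within each culture.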
